A study of Mus musculus with 11 samples.

Results

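The genes described here encode Wnt ligands, their receptors and the proteins that strengthen or block them. They were chosen by a rule on gene symbols, with earlier results of these data known. It takes the Wnt, Fzd, Sfrp, Dkk, Rspo, Lgr4 to Lgr6, Lrp5, Lrp6, Axin, Tcf7, Lef1, Wif1, Ror1 and Ror2 names. The rule covers 55 mouse symbols, and 54 of them were among the 30142 genes tested (Tcf7 was not analysed here). The values come from 11 arrays of pooled tissue of C57B6 wild-type mice of both sexes aged 2 months, with no treatment named in the labels. Carotid body was hybridised to 3 arrays, each from a pool of 10 mice, and adrenal medulla and superior cervical ganglion to 4 arrays apiece, each from a pool of 3 mice. The carotid body is the small organ at the carotid fork that senses arterial oxygen, the adrenal medulla releases catecholamines into the blood from chromaffin cells, and the ganglion holds sympathetic neurons. Each value is a log2 expression value made by the authors with RMA, a method that corrects, normalises and summarises array probes. Means are given ± SD over n = 3 arrays of carotid body and n = 4 of each other tissue. A gene was called where the limma adjusted p was under 0.05 and the log2 difference at least 1, a 2-fold difference. A background bound, below which a level was read as not distinguishable from that of silent genes, lay at 5.38 in carotid body, 5.35 in adrenal medulla and 5.45 in ganglion. Where single arrays of the dimmer tissue lay under the bound, a fold is given as "at least".

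Wnt proteins are secreted, lipid-carrying signals that act over short distances. In the best known branch a Wnt binds a Frizzled receptor together with Lrp5 or Lrp6, the Axin-based complex that destroys beta-catenin is switched off, and beta-catenin enters the nucleus and works with TCF and LEF factors on target genes. Ror receptors carry signals that do not use beta-catenin. R-spondins bind Lgr receptors and keep Frizzled proteins on the cell surface, while Sfrp and Wif1 proteins bind Wnts and Dkk1, Dkk2 and Dkk4 bind Lrp5 and Lrp6. In the mouse adrenal gland the pathway is known for its part in the outer cortex, and in blood vessels for its part in barrier formation.

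The tissues were whole pools, so cells other than the chemoreceptor cells, chromaffin cells and neurons contributed RNA, and fewer cells of a type cannot be told apart from less RNA per cell. The adrenal medulla arrays held adrenal cortex RNA: all 7 measured cortex markers were above the bound there, against 2 in carotid body and 1 in ganglion. Their summed signal was 21.22 to 21.40 on the log2 scale in adrenal medulla and 7.69 to 8.30 elsewhere. The carotid body arrays differed in the summed signal of 8 sympathetic neuron markers, which was 17.52, 15.02 and 16.23 on replicates 1 to 3, against 12.88 to 13.42 in adrenal medulla and 19.82 to 20.09 in ganglion. Fibroblast markers (7 measured) summed to 18.18 to 18.32 in carotid body, 13.13 to 13.34 in adrenal medulla and 16.05 to 16.22 in ganglion. Smooth muscle and pericyte markers (7 measured) summed to 19.12 to 19.50, 14.02 to 14.20 and 11.73 to 12.48 in the same order, and endothelial markers (8 measured) to 14.39 to 14.53, 15.27 to 15.82 and 10.39 to 10.75. The endothelial list was split between carotid body and adrenal medulla, with Pecam1, Cdh5 and Vwf called higher in carotid body and Kdr, Tek, Plvap and Emcn called lower. Glial markers (5 measured) summed to 15.56 to 16.49 in carotid body, 11.38 to 11.96 in adrenal medulla and 15.66 to 16.75 in ganglion, and all 5 were called lower in adrenal medulla than in each other tissue. Chromaffin cell markers (6 measured) summed to 19.94, 18.24 and 19.06 on carotid body replicates 1 to 3. The sums were 21.66 to 21.74 in adrenal medulla and 20.52 to 20.62 in ganglion. Glomus (chemoreceptor) cell markers (6 measured) summed to 19.0, 17.97 and 18.46 on carotid body replicates 1 to 3. The adrenal medulla sums were 19.73 to 19.89 and the ganglion sums 19.1 to 19.3. Th, which is also on the chromaffin cell list, had the highest mean of these 6 markers in each tissue. The single markers were split. For Epas1, Cox4i2 and Ndufa4l2 the carotid body was called above adrenal medulla, and for Th, Kcnk3 and Kcnk9 below it. Against ganglion, 5 of the 6 were called above it and Th alone below. Adipocyte markers (5 measured) summed to 14.01 to 14.87, 9.59 to 10.03 and 9.24 to 10.02 in carotid body, adrenal medulla and ganglion. The part of these cell types in the differences below was not tested.

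All 10 Frizzled genes had a mean above the bound in each tissue. Of 19 Wnt ligands, 5 were above it in at least 1 tissue, with 4 per tissue that were not the same ones. Wnt2b, Wnt5a and Wnt9a were above it in every tissue, Wnt6 in carotid body and ganglion only, and Wnt4 in adrenal medulla only. The other 14 ligands had tissue means between 3.86 and 5.35, and their differences between tissues ran from -0.14 to 0.50. Wnt1, Wnt3a and Wnt7b were among them. Over the whole set, 36 of 54 members (66.7%) were above the bound in carotid body and 30 (55.6%) in adrenal medulla and in ganglion, against 64.2%, 62.5% and 62.0% of protein-coding genes.

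**Figure D1:**
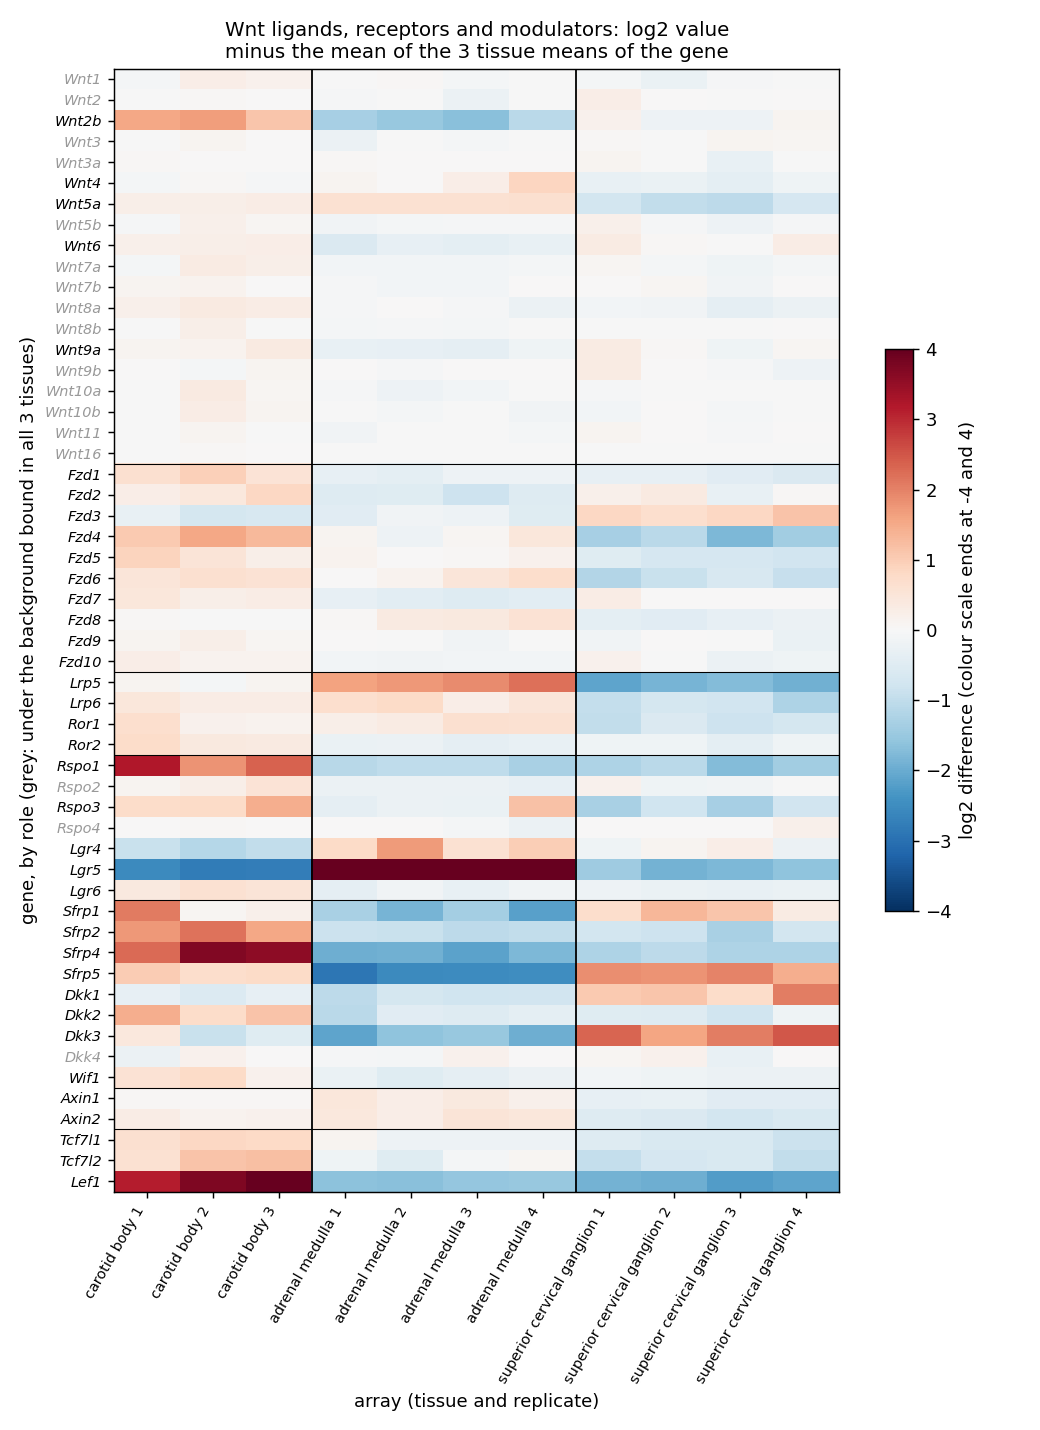
Log2 value of each of the 54 members (rows, by role) on each of the 11 arrays (columns, by tissue), minus the mean of the gene's 3 tissue means, with red higher and blue lower. Lef1, Sfrp4, Rspo1, Sfrp2 and Wnt2b are red on all 3 carotid body arrays, Lgr5 and Lrp5 on all 4 adrenal medulla arrays, and Dkk3 and Dkk1 on all 4 ganglion arrays.

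In both carotid body comparisons more members were called higher than lower in carotid body. Against adrenal medulla, 12 of 54 members were higher in carotid body and 3 were lower, where 6.06% and 4.95% of all genes were called higher and lower. Against ganglion, 17 were higher and 5 lower, where the shares over all genes were 5.61% and 8.28%. Between adrenal medulla and ganglion, 10 were higher and 6 lower in adrenal medulla, against 5.72% and 7.5% of all genes. Among protein-coding genes, which all members are, the shares called higher and lower were 5.32% and 6.44%, 5.39% and 10.4%, and 7.11% and 9.22% in the same order of comparisons. The median difference of the members was 0.26 in each carotid body comparison and -0.02 for adrenal medulla minus ganglion, and that of all genes was 0.05, -0.02 and -0.08. The comparisons share arrays and are not independent of each other. In all, 26 members (48.1%) were called in at least 1 comparison, against 21.6% of all genes, and 28 in none. Of the 28, 17 had means under the bound in every tissue.

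Set against both other tissues, 8 members were higher in carotid body (2.42% of all genes), 3 in adrenal medulla (2.45%) and 3 in ganglion (5.07%). Those of the carotid body were Lef1, Sfrp4, Rspo1, Sfrp2, Wnt2b, Fzd4, Dkk2 and Tcf7l2. Those of the adrenal medulla were Lgr5, Lrp5 and Lgr4, and those of the ganglion were Dkk3, Dkk1 and Fzd3. In the other direction, 7 were lower in ganglion than in both others (2.28% of all genes), namely Wnt5a, Fzd4, Fzd6, Lrp5, Lrp6, Ror1 and Rspo3, the last with a bound of at least 1.25-fold against adrenal medulla. A further 4 were lowest in adrenal medulla (2.68%), namely Wnt2b, Sfrp1, Sfrp5 and Dkk3. Lgr4 and Lgr5 were lower in carotid body than in both others (1.68% of all genes), and neither was called lower than in both under repeated quantile normalization or without carotid body replicate 2.

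**Figure D2:**
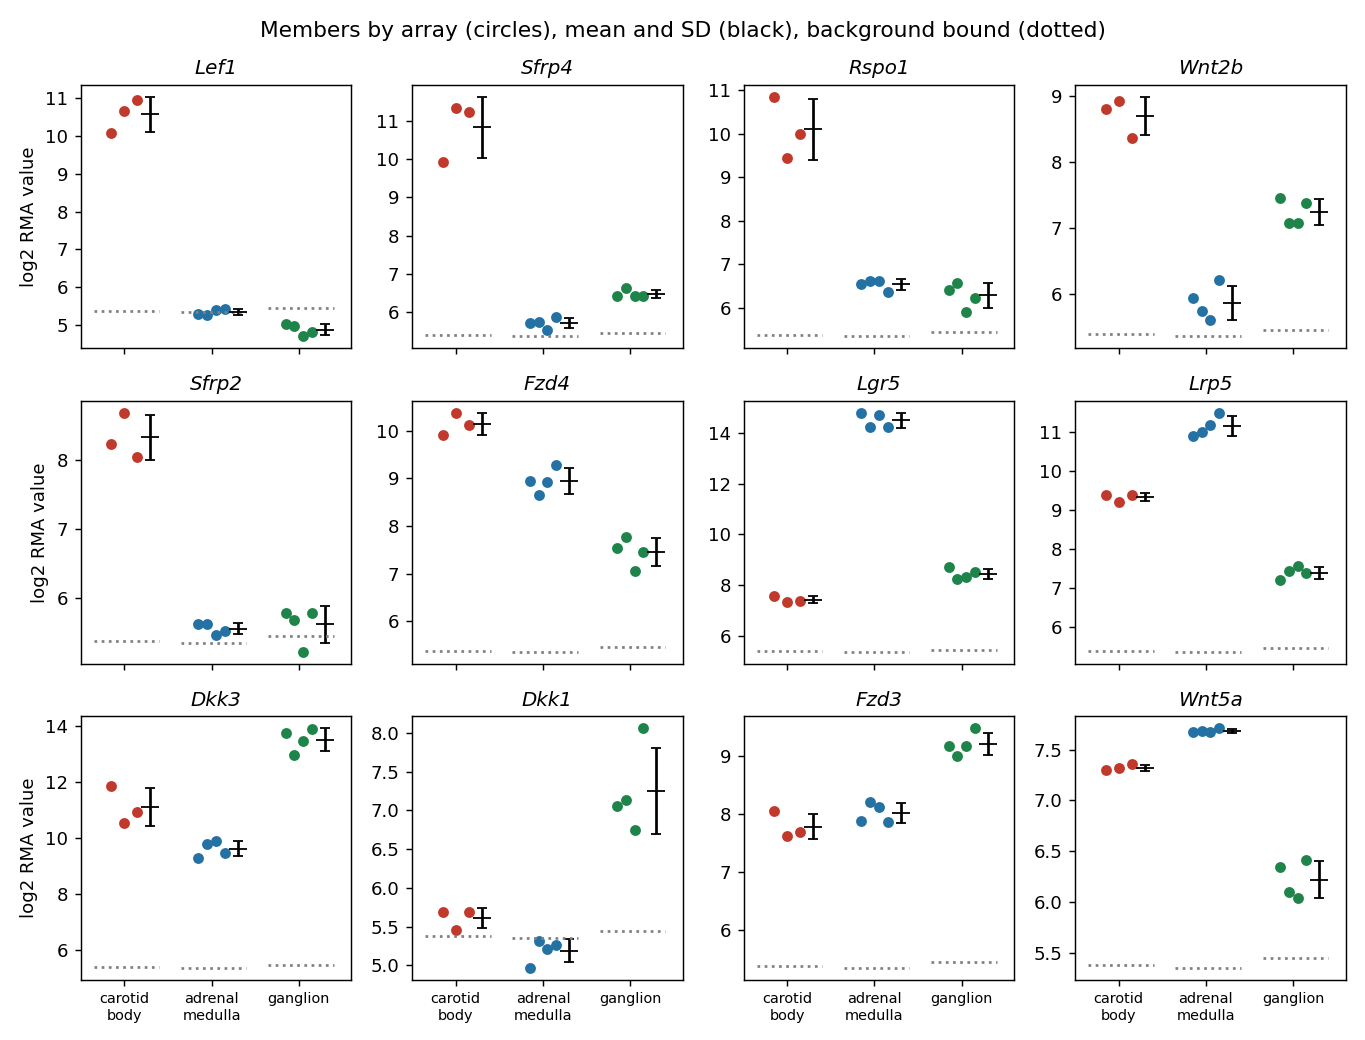
Log2 RMA value of 12 members on every array (circles) in the 3 tissues, with the mean and SD beside each group (black) and the background bound (dotted). The carotid body arrays sit apart from and above the others for Lef1 (10.07 to 10.96), and the adrenal medulla arrays for Lgr5 (14.25 to 14.81).

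Among the ligands, Wnt2b and Wnt5a were called and went different ways. Wnt2b, a ligand that can signal through beta-catenin, read 8.81, 8.93 and 8.37 on the carotid body arrays, 5.93, 5.74, 5.60 and 6.20 in adrenal medulla, and 7.45, 7.07, 7.07 and 7.38 in ganglion. The tissues did not overlap, and carotid body was highest. Wnt2b was 7.16-fold higher in carotid body than adrenal medulla (log2 2.84, SE 0.17, limma adjusted p = 6.97e-07) and 2.76-fold higher than in ganglion (limma adjusted p = 6.68e-05). It was also lower in adrenal medulla than in ganglion, by 1.38.

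Wnt5a, the ligand best known for signals that do not use beta-catenin, was higher in carotid body and adrenal medulla than in ganglion. It read 7.30, 7.32 and 7.36 in carotid body, 7.67, 7.68, 7.67 and 7.71 in adrenal medulla, and 6.34, 6.10, 6.04 and 6.41 in ganglion. The ganglion arrays lay below all others, and the spread within carotid body and adrenal medulla was small (SD 0.03 and 0.02). Wnt5a was 2.15-fold higher in carotid body than in ganglion (limma adjusted p = 6.40e-06) and 2.76-fold higher in adrenal medulla than in ganglion (limma adjusted p = 1.93e-07). The difference between carotid body and adrenal medulla was -0.36 (95% interval -0.56 to -0.16), under the 2-fold limit.

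Wnt4, a ligand of the outer adrenal cortex in mice, stood out on 1 array. It read 5.27, 5.18, 5.41 and 6.03 on adrenal medulla replicates 1 to 4, 5.07 to 5.21 on the carotid body arrays and 4.76 to 4.98 in ganglion, and was not called. Replicate 4 was the adrenal medulla array with the most signal of Cyp11b2, the aldosterone synthase of the outermost cortical zone, at 11.46 against 8.32, 9.24 and 9.70 on replicates 1 to 3. The summed signal of the 4 markers of that zone was 9.92, 10.30, 10.75 and 11.99 in the same order, 9.25 to 9.71 on the carotid body arrays and 8.04 to 8.59 in ganglion. The part of these cells in the Wnt4 level was not tested. Wnt6 (5.86 ± 0.05 in carotid body, 5.23 ± 0.13 in adrenal medulla, 5.80 ± 0.18 in ganglion) and Wnt9a (6.24 ± 0.14, 5.74 ± 0.09 and 6.10 ± 0.21) were not called in any comparison.

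Frizzled receptors were called most often between carotid body and ganglion, as were all genes. The shares of all genes in either direction were 13.9% there, 11% for carotid body minus adrenal medulla and 13.2% for adrenal medulla minus ganglion. Against ganglion, 4 of 10 were higher in carotid body and 1 was lower, where 5.61% and 8.28% of all genes were called, so that the lower count is near the share of all genes. Against adrenal medulla 2 were higher and 0 lower (6.06% and 4.95% of all genes). Between adrenal medulla and ganglion, 2 were higher and 1 lower in adrenal medulla (5.72% and 7.5% of all genes). Fzd4, a receptor with a well-known part in retinal vessel growth, read 9.90, 10.38 and 10.13 in carotid body, 8.95, 8.64, 8.93 and 9.29 in adrenal medulla, and 7.53, 7.76, 7.06 and 7.46 in ganglion. The tissues formed steps with no overlap. Fzd4 was 6.43-fold higher in carotid body than in ganglion (log2 2.68, SE 0.19, limma adjusted p = 2.03e-06), 2.27-fold higher than in adrenal medulla (limma adjusted p = 0.000682), and 2.83-fold higher in adrenal medulla than in ganglion (limma adjusted p = 4.57e-05). The summed endothelial and mural markers were also lowest in ganglion, but single markers were not: Vwf averaged 6.45 in adrenal medulla and 7.23 in ganglion, and Cspg4 5.43 and 6.20. Their part in the Fzd4 differences was not tested.

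Fzd3, a receptor known for its part in axon growth and planar cell polarity, went the other way. It read 9.17, 9.0, 9.16 and 9.47 in ganglion, 8.04, 7.62 and 7.69 in carotid body, and 7.88, 8.20, 8.12 and 7.85 in adrenal medulla. Ganglion was 2.67-fold above carotid body (limma adjusted p = 1.95e-05) and 2.28-fold above adrenal medulla (limma adjusted p = 2.95e-05), and carotid body and adrenal medulla overlapped.

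Fzd6, a receptor of planar polarity in mouse skin, read 8.34, 8.51 and 8.45 in carotid body, 7.88, 7.99, 8.34 and 8.57 in adrenal medulla, and 6.68, 6.98, 7.21 and 6.93 in ganglion. The ganglion arrays lay below all others, by 2.79-fold on average against carotid body and 2.37-fold against adrenal medulla. Fzd1 read 8.14, 8.44 and 8.05 in carotid body, 7.18, 7.11, 7.30 and 7.30 in adrenal medulla, and 7.16, 7.17, 7.05 and 6.91 in ganglion. Carotid body was highest on every array, 2.2-fold above ganglion (limma adjusted p = 1.39e-05). The Fzd1 difference from adrenal medulla, 0.99 (95% interval 0.75 to 1.23), lay just under the limit and passed it under 5 of the alternatives, the one with no size limit aside.

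Fzd5 read 8.11, 7.75 and 7.45 in carotid body, 7.36, 7.25, 7.27 and 7.39 in adrenal medulla, and 6.75, 6.54, 6.56 and 6.47 in ganglion. It was called only between carotid body and ganglion (2.28-fold), and those arrays did not overlap. Fzd2 read 8.62, 8.78 and 9.19 in carotid body, 7.84, 7.87, 7.54 and 7.86 in adrenal medulla, and 8.57, 8.72, 8.08 and 8.41 in ganglion. Adrenal medulla was lowest, and the difference of carotid body from it (log2 1.09, limma adjusted p = 0.00062) fell under the limit when arrays were set to a common median (0.93) or without carotid body replicate 3 (0.92). Fzd7, Fzd8, Fzd9 and Fzd10 were not called, with differences from -0.49 to 0.74.

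The co-receptor Lrp5 separated all 3 tissues, with adrenal medulla highest. It read 10.90, 11.01, 11.17 and 11.50 in adrenal medulla, 9.39, 9.21 and 9.39 in carotid body, and 7.19, 7.42, 7.55 and 7.37 in ganglion. No tissue overlapped another. Adrenal medulla was 13.6-fold above ganglion (log2 3.77, SE 0.13, limma adjusted p = 4.81e-09) and 3.52-fold above carotid body (limma adjusted p = 2.99e-06), and carotid body was 3.86-fold above ganglion (limma adjusted p = 2.15e-06).

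Lrp6, the related co-receptor, read 11.95, 11.80 and 11.80 in carotid body, 12.17, 12.24, 11.77 and 11.98 in adrenal medulla, and 10.55, 10.80, 10.73 and 10.25 in ganglion. It was lower in ganglion on every array, by 1.26 and 1.46 on the log2 scale against carotid body and adrenal medulla, and its difference between carotid body and adrenal medulla was -0.19 (95% interval -0.51 to 0.13). Ror1, a receptor for Wnt5a-type signals, read 7.56, 7.05 and 7.02 in carotid body, 7.11, 7.23, 7.52 and 7.49 in adrenal medulla, and 5.91, 6.32, 6.05 and 6.17 in ganglion, again lowest on every array. The Ror1 difference of carotid body from ganglion (1.09) fell to 0.92 without carotid body replicate 1 and was then not called, as with array weights (0.97). Ror2 averaged 6.05 ± 0.21 in carotid body and lay under the bound in the other tissues, with differences of 0.79 and 0.73 that were not called.

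In the R-spondin branch, the ligand Rspo1 was highest in carotid body and the receptors Lgr5 and Lgr4 in adrenal medulla. Each tissue, ganglion included, had Rspo1, Lgr4 and Lgr5 above the bound. Rspo1 read 10.84, 9.45 and 10.00 in carotid body, 6.54, 6.62, 6.62 and 6.36 in adrenal medulla, and 6.42, 6.58, 5.92 and 6.24 in ganglion. Every carotid body array exceeded every other array, while adrenal medulla and ganglion overlapped. Rspo1 was 11.8-fold higher in carotid body than adrenal medulla (log2 3.56, SE 0.27, limma adjusted p = 2.94e-06) and 14.0-fold higher than in ganglion (log2 3.81, SE 0.27, limma adjusted p = 2.17e-06).

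Lgr5, an R-spondin receptor known as a stem cell marker of the gut, read 14.81, 14.25, 14.72 and 14.25 in adrenal medulla, 7.58, 7.32 and 7.35 in carotid body, and 8.71, 8.23, 8.32 and 8.52 in ganglion. Adrenal medulla stood far above both others. Lgr5 was 136-fold higher there than in carotid body (log2 -7.09 for carotid body minus adrenal medulla, SE 0.17) and 66.9-fold higher than in ganglion (log2 6.06, SE 0.16, limma adjusted p = 8.86e-10). The summed cortex, chromaffin cell, glomus cell and endothelial markers were also highest on the adrenal medulla arrays. Which cells held the Lgr5 transcript was not tested. Between carotid body and ganglion the difference was -1.03, at the edge of the limit, and it was not called under repeated quantile normalization (-0.91).

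Lgr4, the more widely expressed receptor of this family, followed the same order with smaller steps. It read 11.34, 12.28, 11.17 and 11.55 in adrenal medulla, 10.39, 10.69, 10.84 and 10.34 in ganglion, and 9.67, 9.42 and 9.58 in carotid body. Adrenal medulla was 4.08-fold above carotid body (limma adjusted p = 6.66e-05). Its differences from ganglion were near the limit, at 1.02 for adrenal medulla (0.79 without adrenal medulla replicate 2, 0.97 with array weights) and -1.01 for carotid body (-0.94 without carotid body replicate 2, -0.7 under repeated quantile normalization). Lgr6 averaged 5.63 ± 0.11 in carotid body, was under the bound in the other tissues, and was not called.

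Rspo3, which in mice is made by the adrenal capsule, read 6.42, 6.45 and 7.16 in carotid body, 5.35, 5.45, 5.42 and 6.86 in adrenal medulla, and 4.41, 4.89, 4.36 and 4.94 in ganglion. The ganglion arrays were all under the bound, and adrenal medulla replicate 4 stood apart from the other adrenal arrays, as it did for Wnt4 and Cyp11b2. Rspo3 was at least 2.35-fold higher in carotid body than in ganglion (limma adjusted p = 0.00103). In adrenal medulla it was at least 1.25-fold higher than in ganglion, so a 2-fold difference is not shown although the deposited values gave a call. That difference (1.12 with ganglion values under the bound, limma adjusted p = 0.022) dropped to 0.76 without that array, and it missed the adjusted p without ganglion replicate 1 or 3 (limma adjusted p = 0.0647 and 0.0566). Without adrenal medulla replicate 4 the difference between carotid body and adrenal medulla went from 0.91 to 1.27 and was then called. Rspo2 and Rspo4 were under the bound in every tissue.

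**Figure D3:**
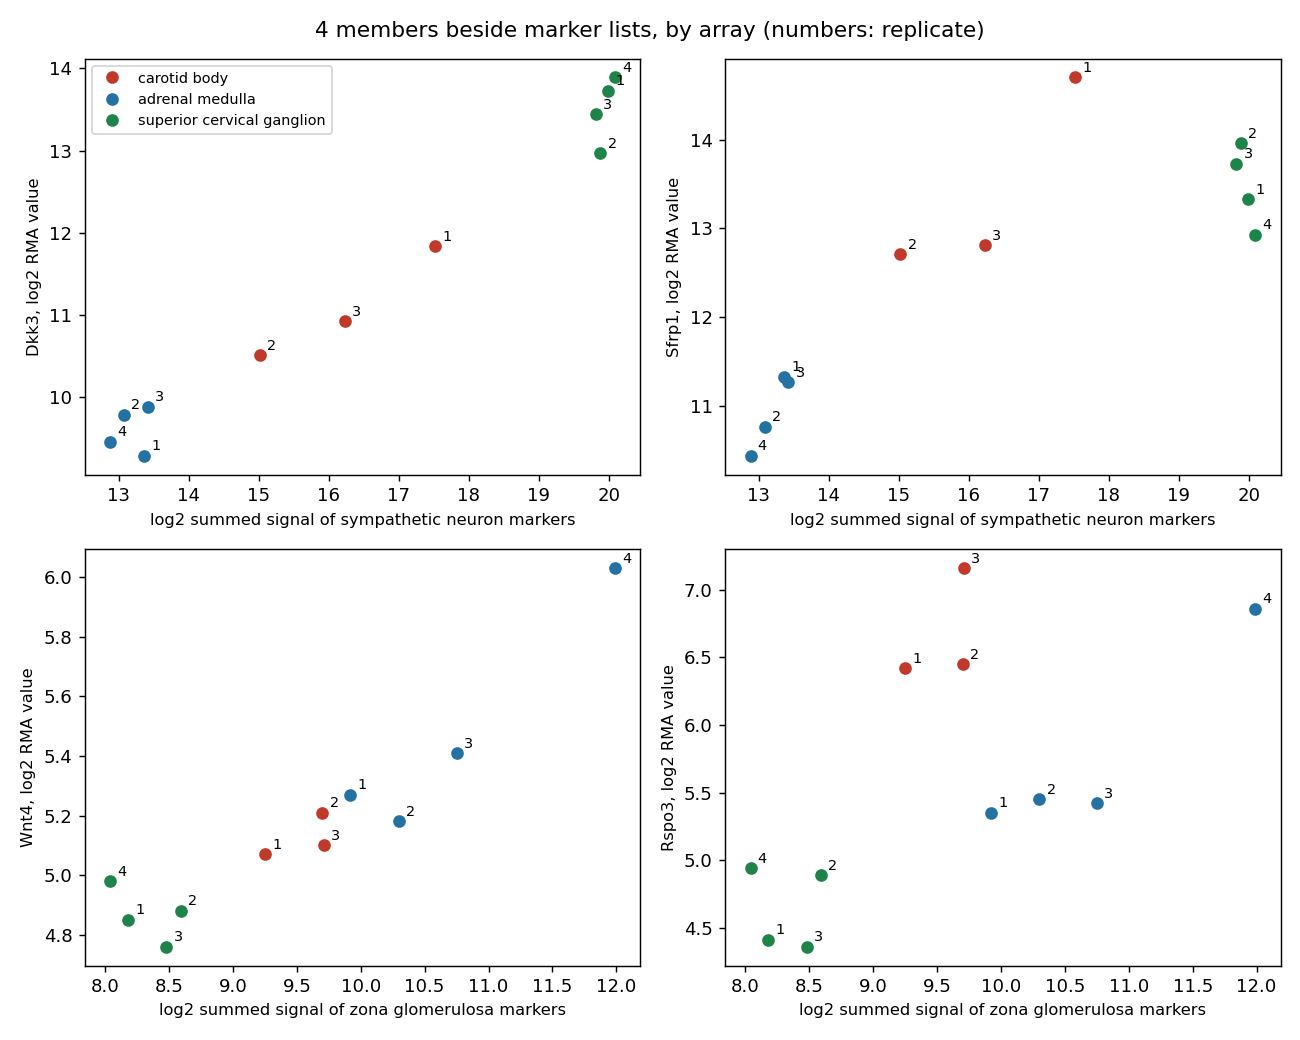
Log2 value of 4 members against the log2 summed signal of a marker list on the same array, with colours for tissues and numbers for replicates. Among carotid body arrays Dkk3 and Sfrp1 are highest on replicate 1, which also has the most neuron marker signal (17.52), and among adrenal medulla arrays Wnt4 and Rspo3 are highest on replicate 4, which has the most zona glomerulosa marker signal (11.99). Carotid body replicate 1 also has the most chromaffin cell (19.94) and glomus cell (19.0) marker signal of the carotid body arrays, which is not drawn. By smaller steps the same holds for glial, smooth muscle and pericyte, fibroblast and endothelial markers, also not drawn.

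Of 9 secreted inhibitors, 6 were higher in carotid body than adrenal medulla and 0 were lower, where 6.06% and 4.95% of all genes were called. In adrenal medulla 4 were lower than in ganglion and 0 higher (7.5% and 5.72% of all genes). Against ganglion, 3 were higher and 2 lower in carotid body (5.61% and 8.28% of all genes). The glial markers and the summed neuron and fibroblast markers were also lowest in adrenal medulla, and their part in these counts was not tested. The median difference of the 9 secreted inhibitors was 1.72 for carotid body minus adrenal medulla and -0.76 for adrenal medulla minus ganglion.

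Sfrp4, a Wnt-binding protein of the frizzled-related family, read 9.92, 11.36 and 11.24 in carotid body, 5.70, 5.73, 5.52 and 5.86 in adrenal medulla, and 6.42, 6.61, 6.42 and 6.42 in ganglion. The carotid body arrays lay above all others by several log2 units. Sfrp4 was 35.3-fold higher than in adrenal medulla (log2 5.14, SE 0.28, limma adjusted p = 2.93e-07) and 20.8-fold higher than in ganglion (log2 4.38, SE 0.28, limma adjusted p = 1.08e-06). Sfrp2, of the same family, showed a similar order at 8.23, 8.69 and 8.05 in carotid body, 5.63, 5.62, 5.47 and 5.52 in adrenal medulla, and 5.78, 5.69, 5.22 and 5.78 in ganglion. It was 6.80-fold above adrenal medulla and at least 6.28-fold above ganglion (limma adjusted p = 6.78e-07 and 8.79e-07). The summed fibroblast, smooth muscle and pericyte, and adipocyte markers given above were highest in carotid body too, and their part in these differences was not tested.

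Sfrp5 and Sfrp1 were lower in adrenal medulla than in both carotid body and ganglion. So were the 5 glial markers and the summed neuron and fibroblast markers, whose part in this was not tested. Of 7 fibroblast markers, 4 were called lower and 1 higher in adrenal medulla than in ganglion. Sfrp5 read 9.78, 9.47 and 9.54 in carotid body, 10.61, 10.56, 10.75 and 10.22 in ganglion, and 5.87, 6.22, 6.25 and 6.27 in adrenal medulla. The adrenal medulla arrays were far below the rest. Sfrp5 was 20.9-fold higher in ganglion than in adrenal medulla (log2 -4.38 for adrenal medulla minus ganglion, SE 0.13, limma adjusted p = 2.29e-09) and 10.9-fold higher in carotid body than adrenal medulla (limma adjusted p = 3.43e-08). Its difference of carotid body from ganglion was -0.94 (95% interval -1.26 to -0.63), under the limit, and was called under 3 of the alternatives, the one with no size limit aside.

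Sfrp1 read 14.70, 12.71 and 12.81 in carotid body, 11.33, 10.77, 11.27 and 10.44 in adrenal medulla, and 13.33, 13.96, 13.73 and 12.93 in ganglion. Carotid body replicate 1 stood above the other carotid body arrays. It was also the one with the most neuron, chromaffin cell, glomus cell and glial marker signal. By smaller steps it had the most smooth muscle and pericyte, fibroblast and endothelial marker signal too, but not the most adipocyte signal. The part of these cells was not tested. Sfrp1 was 5.48-fold higher in carotid body than adrenal medulla (log2 2.45, limma adjusted p = 0.00184), and 3.50-fold without that array. The difference between carotid body and ganglion was -0.08 with a wide interval (95% interval -1.09 to 0.92).

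The Dickkopf genes each had a pattern of their own. Dkk3, a divergent member of the family whose effect on Wnt signals varies by setting, read 13.73, 12.97, 13.44 and 13.89 in ganglion, 11.84, 10.51 and 10.93 in carotid body, and 9.29, 9.79, 9.89 and 9.46 in adrenal medulla. The tissues did not overlap. Dkk3 was 14.9-fold higher in ganglion than in adrenal medulla (log2 -3.90 for adrenal medulla minus ganglion, SE 0.28, limma adjusted p = 1.14e-06) and 5.33-fold higher than in carotid body (limma adjusted p = 0.000106). Within carotid body, Dkk3 and the summed neuron markers had the same order over the arrays, highest on replicate 1 and lowest on replicate 2. The summed chromaffin cell and glomus cell markers had this order as well, and so, by smaller steps, did the fibroblast and endothelial markers. The part of these cells in the Dkk3 level was not tested.

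Dkk1, the classical blocker of Lrp5 and Lrp6, read 7.06, 7.13, 6.75 and 8.06 in ganglion, 5.69, 5.46 and 5.69 in carotid body, and 4.97, 5.31, 5.21 and 5.26 in adrenal medulla. The adrenal medulla arrays were all under the bound, and the carotid body arrays just above it. Ganglion was 3.11-fold above carotid body (limma adjusted p = 0.000362) and at least 3.73-fold above adrenal medulla (limma adjusted p = 3.28e-05). Dkk2 was detected in carotid body, at 7.22, 6.49 and 6.91, and read 4.70, 5.32, 5.24 and 5.36 in adrenal medulla and 5.29, 5.24, 4.96 and 5.58 in ganglion, where both means were under the bound. It was at least 2.87-fold and at least 2.63-fold higher in carotid body (limma adjusted p = 0.000109 and 0.000132). Dkk4 was under the bound in every tissue. Wif1, a Wnt-binding inhibitor, was above it in carotid body at 5.82 ± 0.30, with differences of 0.85 and 0.70 that were not called.

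Inside the cell, 1 of 2 scaffold genes of the beta-catenin destruction complex and all 3 nuclear factors were called in at least 1 comparison, as were 21.6% of all genes. Axin2, a scaffold that is itself a common target of the pathway, read 7.61, 7.46 and 7.50 in carotid body, 7.73, 7.60, 7.82 and 7.77 in adrenal medulla, and 6.79, 6.74, 6.60 and 6.71 in ganglion. The ganglion arrays were lowest, with a difference of 1.02 from adrenal medulla (limma adjusted p = 9.23e-07) and of 0.81 from carotid body (95% interval 0.64 to 0.99), under the limit. The first lost its call by size alone (0.98 as the lowest value) without adrenal medulla replicate 3 or without ganglion replicate 3. Axin1 ranged from 6.62 ± 0.08 in ganglion to 7.34 ± 0.11 in adrenal medulla and was not called.

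Lef1, a nuclear partner of beta-catenin, was high in carotid body and at or under the bound elsewhere. It read 10.07, 10.67 and 10.96 in carotid body, 5.30, 5.27, 5.39 and 5.43 in adrenal medulla, and 5.03, 4.97, 4.70 and 4.82 in ganglion. Ganglion lay under the bound on every array and adrenal medulla close to it. Lef1 was at least 36.4-fold higher in carotid body than adrenal medulla (log2 5.22, SE 0.18, limma adjusted p = 6.28e-09) and at least 34.8-fold higher than in ganglion (limma adjusted p = 7.71e-09). The fitted log2 differences, 5.22 and 5.69, use deposited values of which some in adrenal medulla and all in ganglion are under the bound, and are not measured sizes. Lef1 is also known from T cells, for which 5 markers were measured (Cd3d, Cd3e, Cd3g, Cd4 and Cd8a, a list added after the values were seen). Of these, 0 had a mean above the bound in carotid body, 2 in adrenal medulla and 0 in ganglion. The summed fibroblast, smooth muscle and pericyte, and adipocyte markers were highest in carotid body, as Lef1 was. Which cells held the Lef1 transcript was not tested.

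Tcf7l2, another factor of this family, read 8.23, 8.76 and 8.82 in carotid body, 7.45, 7.14, 7.53 and 7.70 in adrenal medulla, and 6.65, 6.93, 7.0 and 6.63 in ganglion. It was higher in carotid body by 1.15 than in adrenal medulla (limma adjusted p = 0.000441), a call lost when arrays were set to a common median (0.997), and by 1.80 than in ganglion (limma adjusted p = 1.49e-05). Tcf7l1, which mostly represses targets, read 7.4, 7.6 and 7.55 in carotid body, 6.87, 6.57, 6.57 and 6.57 in adrenal medulla, and 6.23, 6.16, 6.14 and 5.91 in ganglion. The tissues did not overlap. Its difference of carotid body from ganglion was called (1.41), and that from adrenal medulla (0.87) was not.

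**Figure D4:**
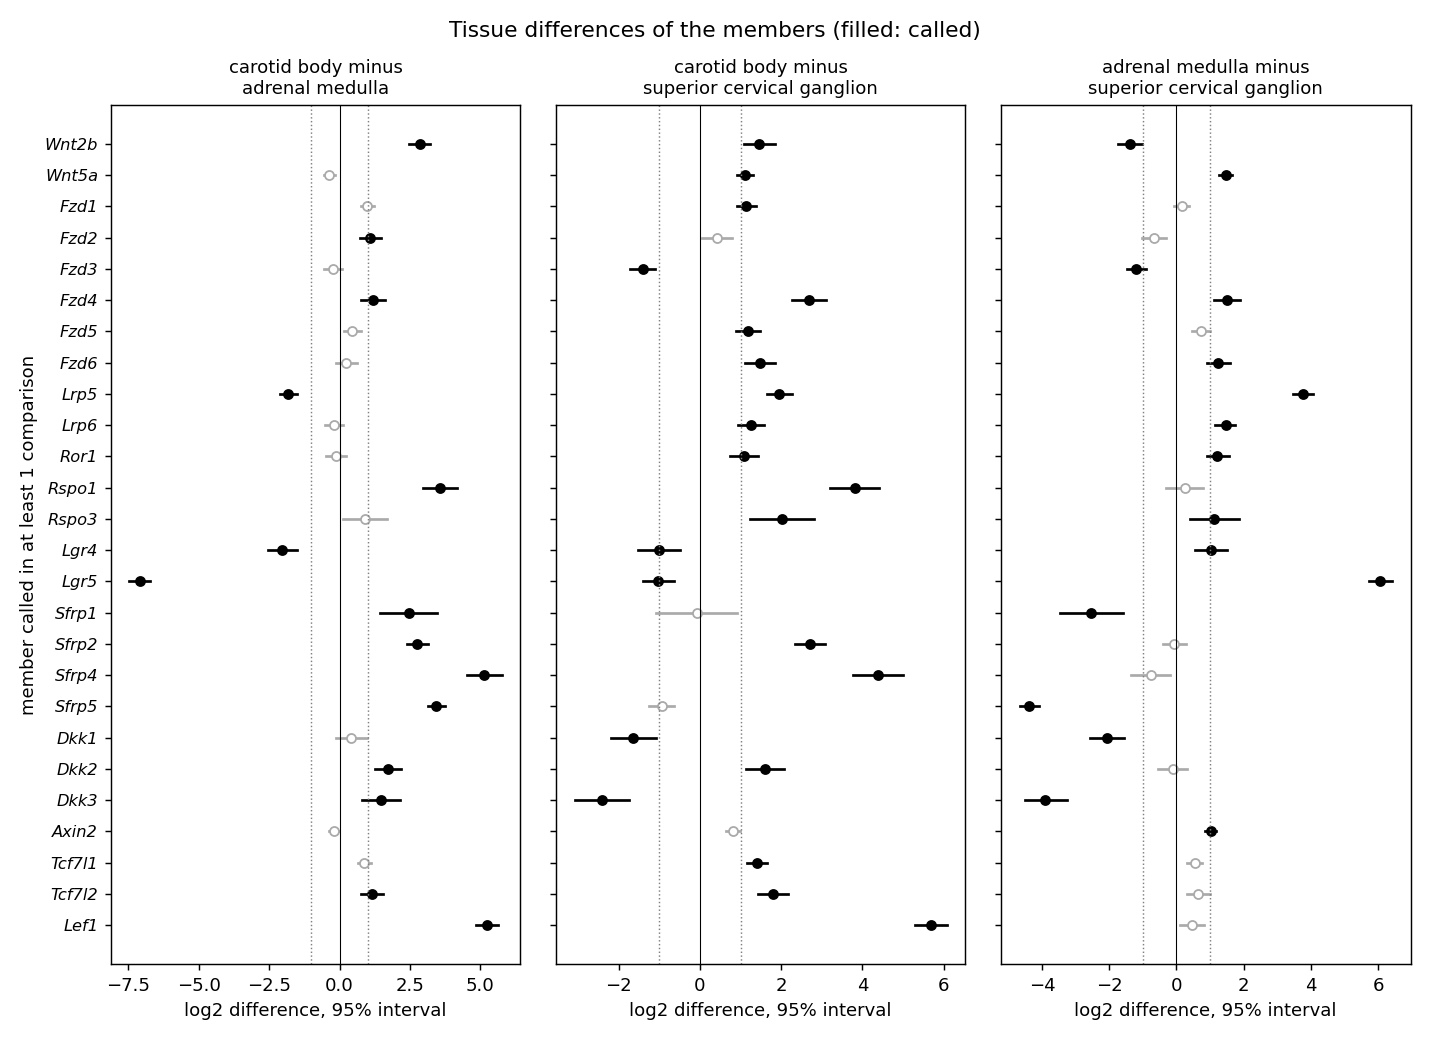
Log2 difference (points) with its 95% interval (lines) for the 26 members called in at least 1 comparison, in the 3 comparisons; filled points were called and dotted lines mark differences of -1 and 1. Lgr5 lies at -7.09 for carotid body minus adrenal medulla and Rspo1 at 3.56 and 3.81 for carotid body minus each other tissue; differences against a tissue with arrays under the bound (among them Lef1, Dkk2, Rspo3, Sfrp2 and Dkk1) are of deposited values and not measured sizes.

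Promoter windows from RefSeq (GRCm38.p6), each 300 bases from 250 before to 50 after a transcript start, were read for 36 of the members. The 4 heptamers bound by TCF and LEF factors (the motif CTTTGAA, the motif CTTTGAT, the motif CTTTGTA and the motif CTTTGTT, searched on both strands) were found in 7 of 43 member windows (16.3%) and in 16.9% of all 32851 windows. No 2 matches overlapped in the member windows. Member windows had a median GC content of 67.3%, against 52.7% over all windows. Of the genes high in carotid body, the window at the upstream start of Lef1 and that of Rspo1 held no match, and that at the most downstream start of Lef1 held 1. Of the others high in carotid body, the downstream window of Tcf7l2 held CTTTGTT starting 14 bases before its start, and those of Sfrp2, Wnt2b, Fzd4 and Dkk2 held none. The Dkk1 window held 2 matches and that of Axin2 none. The windows of Lef1 and Rspo1 are shown as those of members high in carotid body, and that of Dkk1 as that of a member high in ganglion; capitals mark the heptamers.
Lef1, chr3:131110047-131110346, plus strand: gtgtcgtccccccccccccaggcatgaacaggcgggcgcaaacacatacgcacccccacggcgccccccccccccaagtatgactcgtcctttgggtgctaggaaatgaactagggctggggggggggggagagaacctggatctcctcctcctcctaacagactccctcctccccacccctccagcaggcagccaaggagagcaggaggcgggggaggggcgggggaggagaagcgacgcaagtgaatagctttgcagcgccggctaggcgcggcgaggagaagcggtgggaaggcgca
Lef1, chr3:131156044-131156343, plus strand: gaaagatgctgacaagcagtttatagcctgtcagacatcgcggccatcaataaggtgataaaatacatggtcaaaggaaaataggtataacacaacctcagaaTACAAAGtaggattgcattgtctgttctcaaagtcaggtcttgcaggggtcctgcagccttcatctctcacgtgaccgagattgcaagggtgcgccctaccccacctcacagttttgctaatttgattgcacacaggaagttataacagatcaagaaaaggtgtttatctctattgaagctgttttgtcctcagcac
Rspo1, chr4:124986180-124986479, plus strand: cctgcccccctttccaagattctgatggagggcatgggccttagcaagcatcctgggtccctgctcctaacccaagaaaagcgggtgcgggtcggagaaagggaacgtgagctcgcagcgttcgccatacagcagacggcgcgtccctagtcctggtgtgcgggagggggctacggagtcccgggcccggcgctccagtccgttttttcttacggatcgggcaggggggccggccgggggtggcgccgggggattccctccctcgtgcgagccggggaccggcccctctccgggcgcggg
Dkk1, chr19:30549447-30549746, minus strand: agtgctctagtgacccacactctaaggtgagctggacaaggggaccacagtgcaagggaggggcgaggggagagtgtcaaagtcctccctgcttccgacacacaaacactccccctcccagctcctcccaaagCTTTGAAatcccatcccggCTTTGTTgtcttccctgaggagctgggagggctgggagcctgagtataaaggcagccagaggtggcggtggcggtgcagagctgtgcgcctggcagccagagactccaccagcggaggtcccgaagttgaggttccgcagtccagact
In the Lef1 window the match is TACAAAG, the reverse strand of CTTTGTA, starting 147 bases before the start. In the Dkk1 window CTTTGAA and CTTTGTT start 117 and 98 bases before it. A match is a description of the letters and shows no binding.

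Of 64 other genes of the pathway that were listed, 59 were measured. Against adrenal medulla, 12 were higher and 2 lower in carotid body, where 6.06% and 4.95% of all genes were called. Against ganglion, 12 were higher and 7 lower (5.61% and 8.28% of all genes), a lower count near the share of all genes. Between adrenal medulla and ganglion 7 were higher and 11 lower in adrenal medulla (5.72% and 7.5% of all genes). Their median differences were 0.15, 0.13 and -0.05. Secreted and membrane modulators held most of those high in carotid body, with 7 of 17 higher than in adrenal medulla and 8 of 17 higher than in ganglion.

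Gpc3, a cell-surface proteoglycan that binds Wnts, averaged 11.55 ± 0.44 in carotid body, 6.95 ± 0.31 in adrenal medulla and 9.90 ± 0.10 in ganglion, and was 24.3-fold above adrenal medulla (limma adjusted p = 5.83e-08). Sostdc1, a secreted inhibitor of Wnt and BMP signals, was shared by carotid body and ganglion, at 10.51 ± 0.13 and 11.12 ± 0.34 against 7.81 ± 0.19 in adrenal medulla (6.46-fold and 9.90-fold). This is the same order as that of Sfrp5. Dact1, an intracellular modulator that binds Dishevelled, was 5.69-fold and 4.31-fold higher in carotid body than adrenal medulla and ganglion. Reck, which with Adgra2 forms a receptor complex for certain Wnts in brain vessels, was 6.93-fold higher in carotid body than in ganglion and 2.07-fold above adrenal medulla. Adgra2 itself was 3.14-fold and 2.53-fold above adrenal medulla and ganglion.

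Trabd2b, a protease that inactivates Wnts, was at least 4.49-fold above adrenal medulla and 4.11-fold above ganglion in carotid body. Sost, an inhibitor best known from bone, read 7.06 ± 0.69 in carotid body and was under the bound elsewhere (at least 3.28-fold and at least 3.06-fold). Away from carotid body, Gpc4 was 2.22-fold and the co-repressor Tle1 2.14-fold higher in adrenal medulla.

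Ganglion was higher than carotid body in Ctnnbip1, an inhibitor of beta-catenin (3.09-fold), Gsk3b, the kinase that marks beta-catenin for destruction (3.08-fold), and Ndp, a secreted ligand of Fzd4 (at least 1.75-fold, with a carotid body mean under the bound). Against adrenal medulla its largest differences among listed genes were Sostdc1, Gpc3 (7.69-fold) and Tle4 (6.88-fold). Wls, the carrier that brings Wnts to the cell surface, was lower in ganglion, at 8.27 ± 0.16 against 9.96 ± 0.13 in carotid body and 10.37 ± 0.09 in adrenal medulla. Adrenal medulla exceeded ganglion by 4.28-fold for Wls and by 6.90-fold for Gpc4. Frzb, a frizzled-related protein outside the symbol rule, averaged 7.16 ± 0.37 and 6.98 ± 0.34 in carotid body and adrenal medulla, and was under the bound in ganglion.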

How the data were processed

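Per the labels' protocols, total RNA was isolated with a column kit and amplified and labelled for Affymetrix mouse transcriptome arrays. Per the submitters' processing notes, the authors ran RMA in Expression Console, and the deposited values are on a log2 scale; versions are not given in the sources used here, and log base 2 is taken from RMA. The highest value per array was 19.65 to 19.93, above the limit of 16 for a 16-bit scan, so a rescaling that no source names is possible and folds are on the deposited scale. The medians over the tested genes ran from 5.63 to 5.84 per array.

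The table holds 65956 transcript clusters. Clusters paired with 1 gene symbol (30604) were kept, with the brightest per gene, which left 30142 genes; every member has 1 cluster. Symbols were updated through a RefSeq table of GRCm38.p6. A single limma fit (limma 3.58.1, R 4.3.3) with tissue as the factor gave the 3 contrasts, with Benjamini-Hochberg adjustment over all genes, and was tested on simulated data. The background bound is the 95th percentile, per tissue, over 349 vomeronasal receptor and keratin-associated protein genes, taken as silent. In folds, arrays of the dimmer tissue under the bound were set to it. Replicates are pools, and p-values measure the spread between pools.

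All members are accounted for; values per array are given for called members, and up to 3 listed pathway genes per contrast and direction, with further listed genes (Sost, Trabd2b, Adgra2, Frzb) named after their values were seen. Members and lists were chosen with earlier results of these data known. The alternatives were a common array median, quantile normalization, a replicate block, array weights, dim genes left out, mean of a gene's clusters, all clusters, an intensity trend, no size limit, each array left out and, added after the values were seen, a covariate for control features. The number of arrays limits the precision. Raw scans were not analysed here. Same-numbered arrays do not share a source in the labels, and the correlations of their deviations from tissue means ran from -0.17 to 0.25, so the numbers were not taken as pairs.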

Additional observations from a re-analysis of the deposited data

Results flagged for a closer look

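In 7 of 60 groups of 4 arrays tested (members with a mean above the background bound, adrenal medulla and ganglion), 1 array lay far from the other 3 for the range of its group; chance alone gives about 1 in 20 such groups. Rspo3 on adrenal medulla replicate 4 (6.86 against 5.35 to 5.45) is the widest of these gaps. That array also had the highest Wnt4 and the most zona glomerulosa marker signal among the adrenal medulla arrays, and their part in the Rspo3 level was not tested. The other gaps were small: Sfrp2 on ganglion replicate 3 (5.22 against 5.69 to 5.78), Sfrp5 on adrenal medulla replicate 1 (5.87 against 6.22 to 6.27), Fzd2 on adrenal medulla replicate 3 (7.54 against 7.84 to 7.87), and Tcf7l1 on adrenal medulla replicate 1 (6.87 against 6.57). Fzd7 on ganglion replicate 1 (8.51 against 8.22 to 8.24) and Sfrp4 on ganglion replicate 2 (6.61 against 6.42) complete them.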

How the results depend on the processing

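Of 53 member differences called, 45 kept their call and direction under all 21 alternatives, and 0 changed sign. A common array median turned the all-gene median from 0.05 to -0.10 for carotid body minus adrenal medulla, and the all-gene calls from 1828 higher and 1492 lower to 1577 and 1966; members were then 10 higher and 3 lower. Quantile normalization turned the all-gene calls from 1691 and 2496 to 2150 and 2048 for carotid body minus ganglion, and from 1725 and 2262 to 2218 and 1896 for adrenal medulla minus ganglion; members were then 17 and 3, and 10 and 6. The calls that were lost (Fzd2, Tcf7l2, Lgr4, Lgr5, Ror1, Rspo3 and Axin2) had differences of 1.01 to 1.15 in size. Without the size limit, members called higher and lower numbered 24 and 6 for carotid body minus adrenal medulla, 26 higher for carotid body minus ganglion, and 17 and 11 for adrenal medulla minus ganglion. Listed pathway genes then numbered 21 and 8, 23 and 17, and 17 and 24. The all-gene calls also rose, to 4139 and 4694, 4286 and 5985, and 4699 and 5664 of 30142. The lower counts of members for adrenal medulla minus ganglion and of listed genes for carotid body minus adrenal medulla were near the all-gene shares. Still without the limit, members higher in carotid body than in both others numbered 16. Members higher in adrenal medulla numbered 6, lower in adrenal medulla 9 and lower in ganglion 14. All-gene counts against both others were not made without the limit, so these counts have no share beside them. Under quantile normalization, members lower in carotid body than in ganglion fell from 5 to 3 and those lower than in both others from 2 to 0; the latter count was 1 with the control covariate. The cause was not tested.

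Leaving out 1 array at a time gave, for members, 12 to 14 higher and 3 lower (carotid body minus adrenal medulla), 16 to 17 higher and 3 to 6 lower (carotid body minus ganglion, the lowest without carotid body replicate 2), and 8 to 10 higher and 6 lower (adrenal medulla minus ganglion). Counts against both others ran from 8 to 10 higher and 0 to 2 lower in carotid body, 2 to 3 higher and 4 lower in adrenal medulla, and 3 to 4 higher and 6 to 7 lower in ganglion. Listed pathway genes ran from 10 to 13 higher and 1 to 2 lower, 12 to 13 and 6 to 8, and 6 to 8 and 11 to 12. With the replicate block, members were 13 higher and 3 lower, 17 and 5, and 10 and 6 in the 3 comparisons, and Rspo3 was called between carotid body and adrenal medulla (1.14, adjusted p = 0.0173); the numbers do not pair the arrays. Dim levels near the background bound limit what can be said of most Wnt ligands.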
